A study of Mus musculus with 1073 samples.

Results

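*Tal1*, *Lyl1*, *Lmo2* and 5 genes whose proteins join them in 1 complex were followed through 13 sorted populations of the mouse yolk sac between E7.25 and E10.5. The 8 genes were taken by name (*Tal1*, *Lyl1*, *Lmo2*, *Ldb1*, *Tcf3*, *Tcf4*, *Tcf12* and *Cbfa2t3*), and all 8 are among the 15967 genes of the filtered tables. Each sample is the transcriptome of 1 cell, sorted by flow cytometry and captured on the Fluidigm C1 system, and 926 of 1073 captured cells passed the study's filter. At E7.25 and E7.75 the cells were *Flk1*-GFP+ extraembryonic mesodermal derivatives of embryos that carry a GFP allele at *Flk1*, the VEGF receptor gene *Kdr*. The study kept its *Flk1*-GFP line on a C57BL/6 background, and all later cells came from C57BL/6 embryos. Haematopoietic progenitor/colony forming cells (HPC) were TER119- CDH5+ CD41+ at E8.25 and E8.5, and CDH5- CD45+ CD41low at E9.5 and E10.5, so the gate differs between the early and the late HPC. Primitive erythrocytes (EryP) were TER119+ at E8.5 and E10.5. Megakaryocytes (Mk) were sorted on CD41 without CDH5 at E8.5 and as CD41high CD45- cells at E10.5. Macrophages (Mac) were CD45+ CD41- cells of E10.5, and endothelium (Endo) was CDH5+ CD41- at E8.5 and E10.5.

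TAL1 and LYL1 are closely related basic helix-loop-helix (bHLH) factors of blood and endothelium. Each binds DNA at an E-box as a pair with a widely expressed E protein, of which *Tcf3*, *Tcf4* and *Tcf12* encode the mouse members. LMO2 binds no DNA itself and joins the bHLH pair to LDB1, which self-associates. The complex also holds GATA factors. *Cbfa2t3* encodes ETO2, a co-repressor that is recruited to this complex, and Id proteins hold E proteins in pairs that cannot bind DNA. TAL1 and LMO2 are both needed for yolk sac blood to form.

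The genes lie on GRCm38 at chr4:115056426-115071755 for *Tal1*, chr8:84701457-84704715 for *Lyl1* and chr2:103957986-103981878 for *Lmo2*, each on the plus strand. *Ldb1* is on chromosome 19, *Tcf3* on 10, *Tcf12* on 9 and *Cbfa2t3* on 8, each on the minus strand. The 250 bases before the start of *Tal1* and of *Lyl1* are shown because the balance of these related genes is described in detail. They come from RefSeq promoters on GRCm38.p6, in which 6 of the 8 genes have an entry. Capitals mark matches to 2 motifs on either strand, GATAA, bound by GATA factors, and CANNTG, the E-box. Of 32851 promoter windows of this length, 22.6% hold GATAA and 66.2% hold CANNTG.
*Tal1*, chr4:115056176-115056425, plus strand: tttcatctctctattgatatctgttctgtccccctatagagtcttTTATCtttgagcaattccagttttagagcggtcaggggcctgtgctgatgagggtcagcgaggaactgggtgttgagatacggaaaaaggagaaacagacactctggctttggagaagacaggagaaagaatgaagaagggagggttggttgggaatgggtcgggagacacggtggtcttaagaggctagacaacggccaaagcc
*Tal1*, second start, chr4:115057561-115057810, plus strand: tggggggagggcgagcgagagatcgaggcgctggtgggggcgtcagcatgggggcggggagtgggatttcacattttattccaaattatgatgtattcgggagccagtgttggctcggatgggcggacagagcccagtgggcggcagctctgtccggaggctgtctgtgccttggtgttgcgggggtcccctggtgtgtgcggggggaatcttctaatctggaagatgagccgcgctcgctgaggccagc
*Lyl1*, chr8:84701207-84701456, plus strand: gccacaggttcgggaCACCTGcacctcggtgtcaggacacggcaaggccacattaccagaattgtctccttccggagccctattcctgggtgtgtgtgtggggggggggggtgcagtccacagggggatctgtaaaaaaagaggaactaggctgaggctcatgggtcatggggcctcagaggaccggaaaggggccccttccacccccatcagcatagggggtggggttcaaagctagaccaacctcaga
The window before the upstream *Tal1* start holds 1 GATAA match, read on the minus strand as TTATC, and no CANNTG. The window before the second start holds neither. The *Lyl1* window holds 1 CANNTG and no GATAA. These are matches of letters, and binding was not measured here.

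Populations hold 25 to 140 cells, except E10.5 EryP with 3 and the larger E7.25 set, with 483830 to 5943204 counts per cell and a median of 1887350. No embryo, litter or pool is named for a cell, so a population is 1 sample, no test was made and the spread given is that between cells. One flow cell carried the libraries of E7.25 and of both E8 stages, and another carried the rest, so stage and run cannot be told apart between these sets. Each of 6 marker lists had its highest summed level in a population of its own type. The endothelial list holds *Cdh5* and the Mk list *Itga2b*, the gene of CD41. CDH5 and CD41 were used in the sort, so for these lists the result was partly set by the gates. In E8.5 Mk, however, the summed level of *Hbb-bh1*, *Hba-x* and *Alas2* had a median of 22887 CPM against 163 CPM for *Pf4*, *Itga2b* and *Gp9*, while in E10.5 Mk the medians were 8.42 and 5111 CPM. The 1073 captured cells share 96 index pairs over 14 lanes, and no pair recurs within a lane. *Xist* and Y-linked transcripts, at 5 counts or more each, were found together in 293 of 926 cells, from 11.0% of E10.5 Mk to 74.7% of E8.5 Endo among populations with more than 3 cells; whether these cells hold RNA of more than 1 embryo was not tested.

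*Tal1* was found in every erythroid and megakaryocytic cell that passed the filter and was highest in Mk. A gene counts as found at 1 count or more. Levels are the deposited CPM, which are counts scaled by 1 size factor per cell. Their sums ran from 699615 to 4176740 CPM per cell. Intervals of shares are exact 95% binomial intervals for counting error only. *Tal1* was present in all 66 E8.5 EryP, 3 E10.5 EryP, 37 E8.5 Mk and 73 E10.5 Mk cells. Its mean level was 217 CPM in E10.5 Mk, 130.9 CPM in E8.5 Mk and 128.95 CPM in E8.5 EryP. A single E10.5 Mk cell at 3249 CPM gave 20.5% of the sum there, and the medians were 95.7 CPM in E10.5 Mk, 136.9 CPM in E8.5 Mk and 90.5 CPM in E8.5 EryP. By the median, therefore, E8.5 Mk stood above E10.5 Mk.

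Among HPC, *Tal1* was highest at E8.5 and lowest at E10.5. The mean was 71.0 CPM at E8.25 (median 44.9), 79.6 CPM at E8.5 (median 59.2), 56.9 CPM at E9.5 (median 31.8) and 34.9 CPM at E10.5 (median 21.8). The middle 50% of E8.5 HPC lay between 24.6 and 119.5 CPM and that of E10.5 HPC between 7.46 and 48.4 CPM, so the populations overlapped. In *Flk1*-GFP+ cells *Tal1* varied widely between cells. It was found in 58.5% of E7.25 cells (50.1 to 66.6%) and 61.4% of E7.75 cells (52.8 to 69.5%), with means of 42.6 and 43.7 CPM and medians of only 1.43 and 2.26 CPM. Endothelium had means of 43.2 CPM at E8.5 and 40.2 CPM at E10.5 but medians of 18.3 and 1.07 CPM, and the share of cells with *Tal1* was 86.1% and 54.1%. The lowest mean was in Mac at 15.5 CPM, where 1 cell gave 50.6% of the sum and 8 of 25 cells had 10 counts or more.

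*Lyl1* was nearly absent from *Flk1*-GFP+ cells and present in most cells of every blood population with more than 3 cells. It was found in 12.2% of E7.25 cells (7.42 to 18.7%) and 17.1% of E7.75 cells, where the mean was 0.97 and 2.79 CPM. In HPC the share with *Lyl1* was 79.5% at E8.25 and then 94.4%, 95.7% and 96.6% over the later stages. The mean in HPC went from 23.9 CPM at E8.25 to 28.1, 37.3 and 30.8 CPM, with medians of 14.1, 21.6, 32.7 and 26.9 CPM. The order of these HPC populations was thus the same for means and medians. E10.5 Mk had a mean of 97.4 CPM and a median of 52.3 CPM, both the highest for this gene among the 13 populations. E8.5 Mk had 42.9 CPM, E8.5 EryP 21.5 CPM and Mac 31.2 CPM. *Lyl1* was found in 67.1% of E8.5 Endo and 34.4% of E10.5 Endo, with means of 14.9 and 14.7 CPM and medians of 5.90 and 0 CPM. In E10.5 Endo 1 cell carried 41.4% of the sum.

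*Lmo2* was found in all 89 E8.5 HPC, 46 E9.5 HPC, 37 E8.5 Mk and 73 E10.5 Mk. Its mean was 91.5 CPM in E8.25 HPC, 85.6 CPM in E8.5 HPC, 125.1 CPM in E9.5 HPC and 63.4 CPM in E10.5 HPC. The E9.5 mean holds 1 cell at 1736 CPM with 30.2% of the sum, and the medians of the 4 HPC populations were 69.3, 78.3, 62.7 and 49.7 CPM. Mk had means of 114.4 CPM at E8.5 and 100.6 CPM at E10.5. *Lmo2* was lower in E8.5 EryP, at 53.2 CPM (median 35.3), and the 3 E10.5 EryP cells held 9.25, 5.68 and 1.49 CPM. The same 3 cells held 38.4, 46.8 and 290 CPM of *Tal1*, and 75.9, 0 and 4.98 CPM of *Lyl1*. In *Flk1*-GFP+ cells *Lmo2* was found in 64.6% at E7.25 and 65.7% at E7.75, with means of 36.5 and 49.0 CPM and medians of 4.51 and 1.82 CPM. Endothelium held *Lmo2* in 92.4% of cells at E8.5 and 68.9% at E10.5, with medians of 8.53 and 3.33 CPM.

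**Figure D1:**
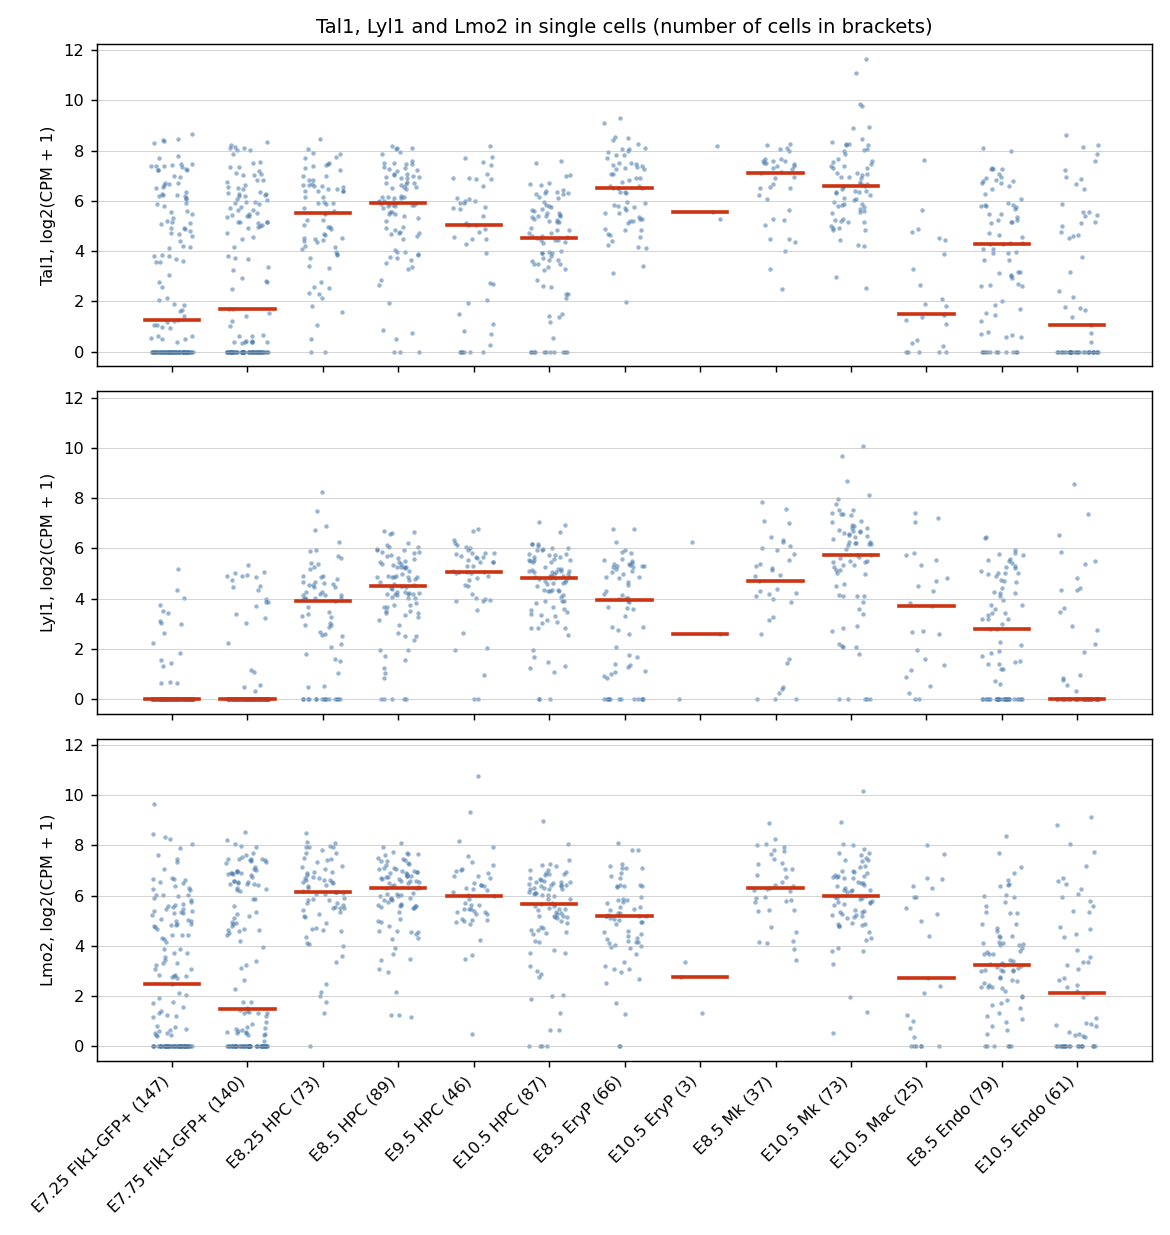
Level of *Tal1*, *Lyl1* and *Lmo2* in each of 926 cells, as log2(CPM + 1) on the vertical axis, by population with the number of cells in brackets. Each point is a cell and the red bar is the median. Many *Flk1*-GFP+ cells are at 0 for *Tal1* or *Lmo2*, most have no *Lyl1*, and cells of all populations overlap.

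For each of the 3 genes, the populations were ranked by mean level and neighbours in that order were compared. The range of the middle 50% of cells overlapped in 12 of 12 neighbouring pairs for *Tal1*, *Lyl1* and *Lmo2*. Neighbours are the closest populations in such an order, so this says nothing of populations further apart. For *Lyl1* the middle 50% of E9.5 HPC lay between 15.8 and 52.6 CPM, while in E7.25 and E7.75 *Flk1*-GFP+ cells both ends were 0 CPM. The mean exceeded the median in 12 of 13 populations for *Tal1* and *Lmo2* and in 13 of 13 for *Lyl1*.

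The balance of the paralogues *Tal1* and *Lyl1* differed between early and late progenitors. To compare genes, CPM were divided by the exon length of the gene, 4.379 kb for *Tal1* and 1.8 kb for *Lyl1*. On this scale of CPM per kb, E7.25 cells had a mean of 9.73 for *Tal1* and 0.54 for *Lyl1*, a log2 ratio of 4.18, and the ratio was 2.69 at E7.75. E8.25 and E8.5 HPC had nearly equal levels, with log2 ratios of 0.29 and 0.22. In E9.5 HPC *Lyl1* stood above *Tal1* at 20.7 against 13.0, a log2 ratio of -0.67, and in E10.5 HPC at 17.1 against 7.96, a log2 ratio of -1.10. Cell by cell, *Lyl1* exceeded *Tal1* per kb in 49.4% of E8.5 HPC, 80.4% of E9.5 HPC and 74.7% of E10.5 HPC.

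E8.5 EryP leaned the other way and macrophages furthest towards *Lyl1*. In E8.5 EryP, *Tal1* had 29.4 and *Lyl1* 11.9 CPM per kb, a log2 ratio of 1.30, and *Tal1* was the higher in 71.2% of cells. E8.5 Mk had a log2 ratio of 0.33, with *Tal1* higher in 78.4% of cells. In E10.5 Mk the means were 49.6 for *Tal1* and 54.1 for *Lyl1*, a log2 ratio of -0.13, and *Lyl1* was higher in 58.9% of cells. Mac had 3.54 against 17.3, a log2 ratio of -2.29, with *Lyl1* higher in 72.0% of cells. In all, *Lyl1* exceeded *Tal1* in 4 of 13 populations (E9.5 HPC, E10.5 HPC, E10.5 Mk and Mac), and in the same number with medians, with longest transcripts and with total counts as the scale. The early and late HPC differ in gate and flow cell, and their part in the shift was not tested.

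**Figure D2:**
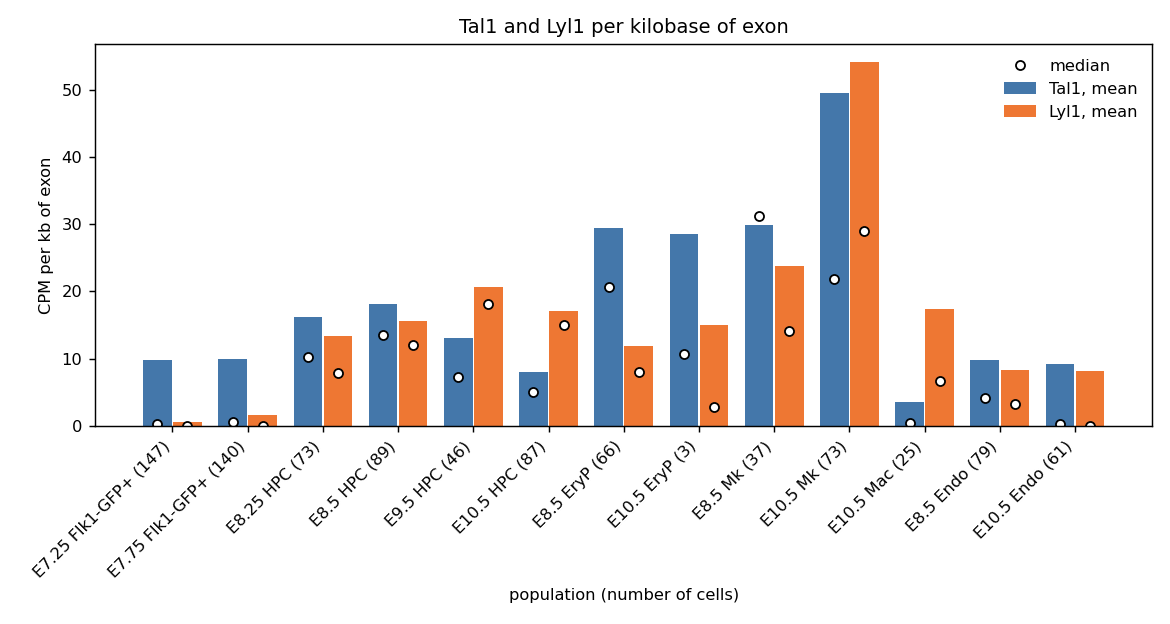
*Tal1* (blue) and *Lyl1* (orange) in CPM per kb of exon by population. Bars are means over cells, white circles are medians, and the number of cells is in brackets. *Tal1* is far above *Lyl1* in *Flk1*-GFP+ cells, the bars are near equal in E8.25 and E8.5 HPC, and *Lyl1* is the taller bar in E9.5 HPC, E10.5 HPC, E10.5 Mk and E10.5 Mac.

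*Tal1*, *Lyl1* and *Lmo2* were found together, at 1 count or more, in most blood cells and in few *Flk1*-GFP+ or E10.5 endothelial cells. All 3 were found in 56 of 73 E8.25 HPC (76.7%, 65.4 to 85.8%), 81 of 89 E8.5 HPC (91.0%), 38 of 46 E9.5 HPC (82.6%) and 71 of 87 E10.5 HPC (81.6%). They were found in 52 of 66 E8.5 EryP (78.8%), 34 of 37 E8.5 Mk (91.9%) and 68 of 73 E10.5 Mk (93.2%). Fewer cells held all 3 in Mac (15 of 25, 60.0%), E8.5 Endo (44 of 79, 55.7%) and E10.5 Endo (9 of 61, 14.8%, 6.98 to 26.2%). The Mac cells were deep, with a median of 3422340 counts, and with each cell thinned to 800000 counts the share there was 32.0%, against 46.8% in E8.5 Endo and 87.6% in E8.5 HPC. With a minimum of 10 counts for each gene the share was 6.12% at E7.25, 47.9% in E8.25 HPC, 20.0% in Mac and 17.7% in E8.5 Endo, against 76.4% in E8.5 HPC. In E8.5 EryP the share was 66.7% without the cells that held transcripts of both sexes.

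The missing gene differed with the population. *Tal1* and *Lmo2* without *Lyl1* were the pattern of 33.3% (E7.25) and 36.4% (E7.75) of *Flk1*-GFP+ cells, and of 24.1% of E8.5 Endo, 24.6% of E10.5 Endo, 19.2% of E8.25 HPC and 18.2% of E8.5 EryP. In late HPC the gap was more often *Tal1*, as 10 cells of E10.5 and 6 of E9.5 held *Lyl1* and *Lmo2* without it and 2 cells of each held *Tal1* and *Lmo2* without *Lyl1*. All 3 genes were missing from 22.4% of E7.25 and 24.3% of E7.75 cells.

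In *Flk1*-GFP+ cells the 3 genes nested, with *Lyl1* inside *Tal1* and *Lmo2*. At E7.25 all 18 cells with *Lyl1* also held *Tal1* and *Lmo2*, so 12.2% of cells held all 3 where the product of the single shares is 4.63%. At E7.75 22 of 24 cells with *Lyl1* held both others, 15.7% of cells (10.1 to 22.8%) against a product of 6.92%. *Tal1* and *Lmo2* were themselves found together in 45.6% of E7.25 cells against a product of 37.8%, and in 52.1% of E7.75 cells against 40.4%. With a minimum of 10 counts for each gene, 9 of 10 cells with *Lyl1* at E7.25 and 16 of 17 at E7.75 held the others, and after thinning 15 of 15 and 17 of 17 did. The nesting was seen in each sequencing lane, with 13 of 13 and 5 of 5 cells in the 2 lanes of E7.25. It was 11 of 13 and 11 of 11 in those of E7.75. Without the cells that held transcripts of both sexes it was 16 of 16 and 21 of 23. Where *Tal1* and *Lmo2* are in nearly all cells, as in HPC, EryP and Mk, the share cannot move far from the product, so these populations do not bear on whether the nesting is particular to *Flk1*-GFP+ cells. In E10.5 Endo 14.8% of cells held all 3 against a product of 12.8%, and 12.3% against 8.40% after thinning. E8.5 Endo had 55.7% against 53.4%, and 46.8% against 47.1% after thinning. The product is the share for genes found independently of each other, which a mixture of cell types need not give.

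**Figure D3:**
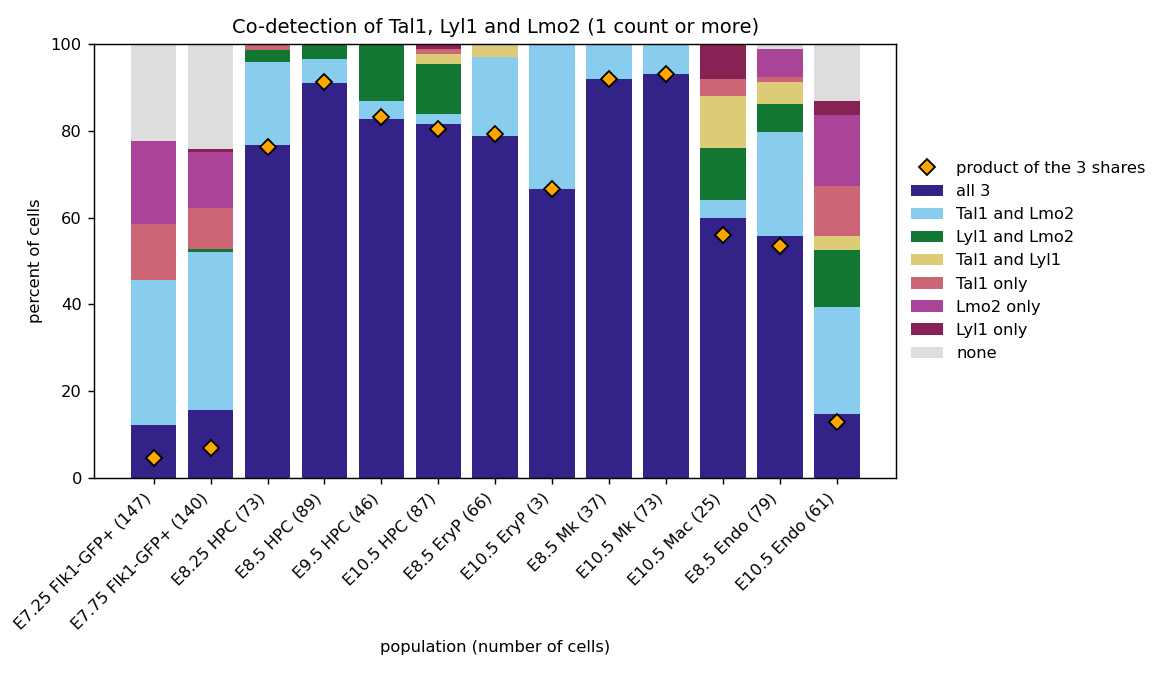
Percent of cells with each combination of *Tal1*, *Lyl1* and *Lmo2* at 1 count or more, by population with the number of cells in brackets; diamonds give the product of the 3 single shares. The dark share with all 3 is 12.2% and 15.7% in *Flk1*-GFP+ cells, above the diamonds at 4.63% and 6.92%. Where *Tal1* and *Lmo2* are in nearly all cells the diamond has to lie at the top of the dark share.

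In *Flk1*-GFP+ cells of E7.25 *Runx1*, *Fli1* and *Gata2* had higher medians in cells with all 3 genes than in cells with none, and endothelial genes moved with these sets too. At E7.25 these 18 cells had medians of 63.7 CPM of *Tal1*, 44.8 CPM of *Lmo2* and 6.03 CPM of *Lyl1*, and the 49 cells with *Tal1* and *Lmo2* alone had 45.9 and 32.2 CPM. *Runx1*, which directs definitive blood formation, was found in 18 of 18, and the ETS factor gene *Fli1* in 18 of 18 with a median of 339 CPM. In the 49 cells without *Lyl1* the *Fli1* median was 160 CPM, and in the 33 cells with none of the 3 it was 1.04 CPM. *Gata2* had a median of 179 CPM in the cells with all 3, 104.6 CPM in those without *Lyl1* and 1.21 CPM in those with none. The 4 sets had similar depth, with median totals from 1792650 to 1954970 counts. *Foxf1*, a mesodermal gene, ran the other way with medians of 12.4, 27.8 and 71.1 CPM. *Cdh5*, the endothelial cadherin gene, was found in 50.0% of cells with all 3, 46.9% of those without *Lyl1* and 6.06% of those with none. *Kdr*, whose GFP allele was used for the sort, had medians of 156.6, 104.6 and 34.4 CPM. *Erg*, another ETS factor gene of endothelium, was found in 33.3%, 12.2% and 0% of these cells, with a median of 0 CPM in each set.

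At E7.75 the cells with all 3 genes also held erythroid regulators. The 22 cells with all 3 genes had medians of 60.3 CPM of *Tal1*, 90.4 CPM of *Lmo2* and 17.1 CPM of *Lyl1*. *Gata1*, the erythroid and megakaryocytic GATA factor gene, had a median of 213 CPM there, 55.2 CPM in the 51 cells with *Tal1* and *Lmo2* alone and 0 CPM in the 34 cells with none, and it was 2.75 CPM in the cells with all 3 at E7.25. *Gfi1b*, a repressor gene of the same lineages, had 170, 49.9 and 0 CPM. *Cbfa2t3* was found in all 22 cells with all 3, in 86.3% of the 51 and in 35.3% of the 34, with medians of 91.2, 42.6 and 0 CPM. *Klf1*, an erythroid activator gene, was found in 63.6%, 58.8% and 5.88% of these sets, so the first 2 shares were close. *Runx1* had its higher median in the cells without *Lyl1*, at 106.5 CPM against 72.8 CPM with all 3 and 0.37 CPM with none. *Cdh5* was found in 81.8%, 47.1% and 8.82% of the sets, and the part of endothelial cells in these differences was not tested. *Ldb1* varied little, found in 86.4%, 82.4% and 85.3%. The sets were defined by the 3 genes, and cells of 1 population are not replicates, so these values describe the cells only.

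*Ldb1* was found in 54.1% to 91.0% of cells in every population with more than 3 cells. Its mean lay between 12.3 and 32.0 CPM in 11 populations. The mean was 45.0 CPM in E8.5 HPC, where 1 cell at 2569 CPM held 64.1% of the sum and the median was 8.66 CPM. Without that cell the mean was 16.3 CPM. E8.5 EryP had the highest median among the 13 populations, 18.0 CPM. *Ldb1* shares 177 exon bases with *Pprc1* on the other strand, and reads of that stretch cannot be told apart since the counting strand is not given in the sources used here. The remaining mean was 9.58 CPM in the 3 E10.5 EryP cells. The related gene *Ldb2* was at 257 CPM in E8.5 Endo and 381 CPM in E10.5 Endo but at 28.9 CPM in E8.5 HPC and 15.1 CPM in E10.5 HPC, and it had no count in E8.5 Mk or EryP.

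A cell was scored for the complete set of subunits when it held *Tal1* or *Lyl1*, an E protein gene, *Lmo2*, *Ldb1* and *Gata1* or *Gata2*. The set was complete in 39.5% of E7.25 cells (31.5 to 47.8%) and 44.3% of E7.75 cells. In HPC, ordered by stage, it was complete in 79.5%, 89.9%, 78.3% and 73.6%. E8.5 EryP had it in 87.9% of cells, E8.5 Mk in 75.7%, E10.5 Mk in 65.8%, E8.5 Endo in 57.0% and E10.5 Endo in 26.2%. In both Mk populations every other part of the set was found in 100% of cells, so the complete share there is the share with *Ldb1*. In E8.5 and E10.5 Endo *Ldb1* was found in 63.3% and 54.1% of cells, and *Ldb2* was not scored. In Mac the set was complete in 12.0%, where *Gata1* or *Gata2* was found in 24.0% of cells. A minimum of 10 counts for each gene lowered these shares, to 60.7% in E8.5 HPC, 19.7% at E7.25 and 4.00% in Mac. Every cell outside E10.5 EryP held at least 1 of the E protein genes.

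Of the E protein genes, *Tcf4*, which lies on chromosome 18, was highest in endothelium. Its mean was 240 CPM in E8.5 Endo (median 193) and 409 CPM in E10.5 Endo (median 218), against 80.6 CPM in E8.5 HPC (median 64.6) and 84.6 CPM in E10.5 HPC (median 64.1). Without the highest cell of each population the endothelial means were 231 and 342 CPM. The middle 50% of E8.5 Endo cells, 104.8 to 293 CPM, overlapped that of E8.5 HPC, 27.4 to 109.6 CPM, only at its edge. *Tcf4* was lowest in E8.5 EryP among populations with more than 3 cells, at 41.3 CPM with a median of 13.9 CPM. E8.5 and E10.5 Mk had medians of 28.8 and 32.8 CPM, and *Flk1*-GFP+ cells 81.8 and 88.2 CPM.

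*Tcf12* had its 2 highest means in E10.5 Endo, at 176 CPM, and in E7.25 cells, at 163 CPM. The median was 59.9 CPM in E10.5 Endo and 121.4 CPM at E7.25, the highest of the 13 populations, and without the highest cell of each the means were 151.3 and 159.8 CPM. It was 123.95 CPM at E7.75, and in HPC it went from 137.5 CPM at E8.25 to 104.03, 74.3 and 60.1 CPM, with medians of 72.9, 73.7, 43.7 and 34.1 CPM. *Tcf3*, which encodes E12 and E47, lay between 9.67 and 33.0 CPM in 11 populations. E10.5 Mk had a mean of 49.7 CPM and a median of 2.88 CPM, since 1 cell at 2069 CPM held 57.1% of the sum. The *Tcf3* medians of the 4 HPC populations, by stage, were 12.6, 19.9, 7.5 and 4.60 CPM.

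As a share of the 3 E protein genes per kb of the longest transcript, *Tcf4* made up 49.6% in E8.5 Endo and 57.1% in E10.5 Endo. *Tcf12* made up 51.4% at E7.25, 47.8% in E8.5 HPC and 58.2% in E8.5 EryP. The exons of *Tcf4* span 27.382 kb and those of *Tcf12* 15.529 kb over all transcripts, against 8.577 and 6.299 kb for the longest. With the longer lengths *Tcf4* was 39.2% and 46.6% of the sum in E8.5 and E10.5 Endo, and *Tcf12*, at 39.9%, passed it in E8.5 Endo. Which of these genes is highest per kb thus depends on the length used, also in E9.5 HPC, E10.5 HPC and E8.5 Mk.

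*Id3*, which encodes an inhibitor of the E proteins, was highest in the 4 populations with the lowest mean of *Lyl1*. It had means of 295 CPM at E7.25, 236 CPM at E7.75, 323 CPM in E8.5 Endo and 338 CPM in E10.5 Endo. In HPC the means, by stage, were 69.3, 45.6, 4.75 and 18.0 CPM, with medians of 1.53 CPM or less. It was at 0.26 CPM in E8.5 EryP and 0.69 CPM in E8.5 Mk. Of the 4 Id genes, 3 were more than 2-fold lower in E8.5 EryP, in E8.5 Mk and in E10.5 Mk than in HPC of the same stage, and 3 were more than 2-fold higher in E8.5 Endo. Of all genes with an average of at least 10 CPM, 22.9%, 13.9%, 23.3% and 25.3% were past 2-fold in either direction in these comparisons. The Id genes were counted without that limit. *Id1* was at 2.21 CPM in E8.5 EryP, 0.43 CPM in E8.5 Mk and 9.12 CPM in E8.5 HPC. In *Flk1*-GFP+ cells *Id3* was found in all cells at E7.25, and its median there was 272 CPM in cells with all of *Tal1*, *Lyl1* and *Lmo2* and 315 CPM in cells with none. At E7.75 these medians were 103.7 and 250.03 CPM.

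*Cbfa2t3*, the co-repressor gene, was higher at E7.75 than at E7.25. At E7.25 47.6% of cells held it (mean 14.5, median 0 CPM), and at E7.75 69.3% did (mean 41.9, median 9.68 CPM). In HPC it was found in at least 97.7% of cells, with means of 80.5, 87.8, 100.99 and 90.9 CPM from E8.25 to E10.5 and medians of 62.6, 71.4, 91.4 and 72.3 CPM. Mk had 82.0 CPM at E8.5 and 88.4 CPM at E10.5. The highest mean, 128.6 CPM, was in Mac, but 1 of 25 cells held 43.0% of the sum and the median was 17.3 CPM. *Cbfa2t3* shares 295 exon bases with the antisense gene *Gm10612*, which likewise cannot be told apart. The other ETO genes differed from it, as *Runx1t1* was highest in E8.5 EryP at 175 CPM and had 1 count over all E10.5 Mk, and *Cbfa2t2* lay between 24.8 and 141.6 CPM in populations with more than 3 cells.

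**Figure D4:**
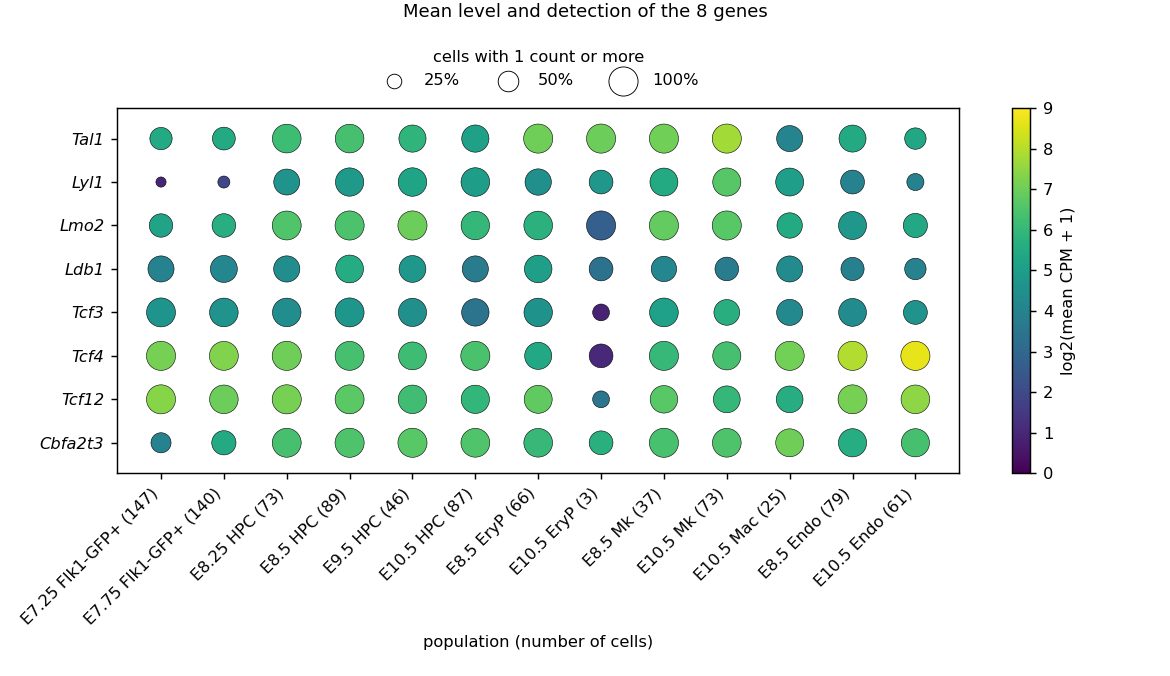
Mean level and detection of the 8 genes by population, with the number of cells in brackets. Colour gives log2(mean CPM + 1) and the area of a dot the percent of cells with 1 count or more. *Lyl1* has small dots in *Flk1*-GFP+ cells (12.2% and 17.1%), *Tcf4* is brightest in endothelium, and E10.5 EryP rests on 3 cells.

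Populations were compared in 12 pairs by the log2 ratio of mean CPM + 1, with 2-fold as the limit. From E7.25 to E7.75, 1 of 8 genes was past 2-fold, *Cbfa2t3* with a log2 ratio of 1.46, where 8.56% of 8414 genes with an average of at least 10 CPM were. The *Cbfa2t3* medians, 0 and 9.68 CPM, went the same way. *Lyl1* had a log2 ratio of 0.95. These stages lie on different flow cells. From E8.25 to E8.5 HPC, on 1 flow cell, only *Ldb1* was past 2-fold (1.16, against 5.22% of all genes), and without the highest cell of each population its ratio was -0.17.

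In E10.5 against E8.5 HPC 3 of 8 genes were past 2-fold, all lower, *Ldb1* (-1.79), *Tcf3* (-1.31) and *Tal1* (-1.17), where 18.2% of all genes were past it in either direction. *Lyl1* (0.13), *Tcf4* (0.07) and *Cbfa2t3* (0.05) were not lower. The median over the 8 genes was -0.60 and that over all genes was -0.08. The *Tal1* and *Tcf3* ratios of medians were -1.40 and -1.90, and the *Ldb1* ratio was -0.66 without the highest cells. With total counts in place of the deposited factors the median of all genes moved by 0.15, and only *Tcf3* was past 2-fold (-1.22). In E10.5 against E9.5 HPC 2 of 8 were past it, *Ldb1* and *Tcf3* with -1.08 each, where 12.1% of all genes were, and with medians none was.

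E10.5 Mk held more *Tal1* and *Lyl1* than E10.5 HPC of the same flow cell. The log2 ratio was 2.6 for *Tal1* and 1.63 for *Lyl1*, and *Tcf3* had 2.25, so 3 of 8 genes were past 2-fold where 23.3% of all genes were. The ratios of medians were 2.08 and 0.93 for *Tal1* and *Lyl1*, but -0.53 for *Tcf3*. Without the highest cells *Tal1*, *Lyl1* and *Tcf3* had 2.37, 1.47 and 1.18. With total counts as the scale the median of all genes moved by -0.22, and 3 genes were past 2-fold. In E8.5 Mk against E8.5 HPC *Tal1* was 0.71 (1.19 with medians), and only *Ldb1* was past 2-fold at -1.38, where 13.9% of all genes were. That value again rests on the 1 E8.5 HPC cell, and without the highest cells it was -0.13. In E10.5 against E8.5 Mk *Lyl1* was past 2-fold at 1.16 (1.02 with medians), where 25.9% of all genes were, and *Tal1* was 0.73 by means and -0.51 by medians. With total counts no gene was past it.

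None of the 8 genes was past 2-fold in E8.5 EryP against E8.5 HPC, where 22.9% of all genes were. *Tal1* was 0.69 higher on the log2 scale, *Tcf4* 0.95 lower and *Lmo2* 0.68 lower. With medians *Tcf4* was -2.13, *Lmo2* -1.13 and *Tcf3* -1.01. The median of all genes moved by -0.24 with total counts, and *Tcf4* was then past 2-fold (-1.17).

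*Tcf4* was more than 2-fold higher in endothelium than in HPC of its stage. In E8.5 Endo 3 of 8 genes were past 2-fold, *Tcf4* higher (1.56) and *Lmo2* and *Ldb1* lower (-1.67 and -1.62), where 25.3% of all genes were. The ratios of medians were 1.56, -3.06 and -1.68, and without the highest cells *Ldb1* was -0.36. Cells with transcripts of both sexes made up 74.7% of E8.5 Endo and 44.9% of E8.5 HPC, and their part in these ratios was not tested. In E10.5 Endo against E10.5 HPC 4 of 8 were past it, *Tcf4* (2.26), *Tcf12* (1.53), *Tcf3* (1.19) and *Lyl1* (-1.02), a share close to the 47.8% of all genes. The ratios of medians were 1.75, 0.79, -0.83 and -4.80. *Tal1*, *Lmo2*, *Cbfa2t3* and *Ldb1* were not past 2-fold by means, but their ratios of medians were -3.46, -3.55, -1.60 and -1.51. With total counts the median of all genes moved by -0.29, and 3 genes were past 2-fold. In E10.5 against E8.5 Endo none was past 2-fold where 34.1% of all genes were, while the ratio of medians was -3.22 for *Tal1* and -2.79 for *Lyl1*.

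Mac held less *Tal1* than E10.5 HPC, with a log2 ratio of -1.12 (-3.02 with medians), the only 1 of the 8 genes past 2-fold where 44.3% of all genes were. With total counts the median of all genes moved by -0.16. *Lyl1* and *Cbfa2t3* had log2 ratios of 0.02 and 0.50, but -1.11 and -1.998 with medians and -0.21 and -0.20 without the highest cells. Comparisons that share the E8.5 or E10.5 HPC are not independent of each other. In 27 of the 96 ratios the ratio of medians had the other sign. Of the 20 ratios past 2-fold 4 did, all for *Ldb1* or *Tcf3*.

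**Figure D5:**
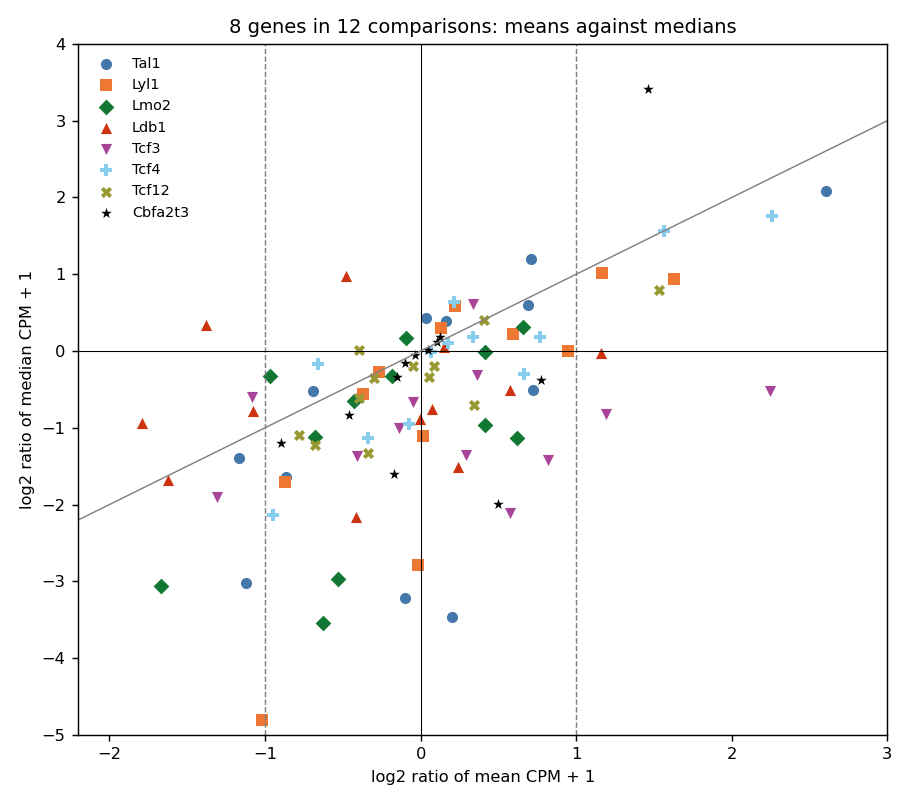
Log2 ratio of mean CPM + 1 (horizontal axis) and of median CPM + 1 (vertical axis) for the 8 genes in 12 comparisons, 1 point per gene and comparison. Dashed lines mark 2-fold and the diagonal marks equal ratios. The 4 points past 2-fold by means with medians of the other sign belong to *Ldb1* and *Tcf3*.

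Other genes that bind in or near the complex were described from lists chosen by function. *Gata1* was at 501 CPM in E8.5 EryP, 392 CPM in E8.5 Mk, 457 CPM in E10.5 Mk and 199 CPM in E8.5 HPC, and had 2 counts over all Mac cells. *Gata2* was highest in E10.5 HPC at 153.9 CPM (median 78.9). Of the GATA, ETS and RUNX list (*Gata1*, *Gata2*, *Runx1*, *Fli1* and *Erg*) 4 of 5 were more than 2-fold lower and 1 higher, *Gata1*, in E8.5 EryP than in E8.5 HPC, where 22.9% of all genes were past 2-fold. *Fli1* was at 4.15 CPM in E8.5 EryP against 477 CPM in E8.5 HPC and 663 CPM in E8.5 Mk.

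Of the LIM-only, LDB and SSBP list, whose SSBP proteins bind LDB1, 6 of 8 genes were analysed here. *Lmo4* was at 132.3 CPM in Mac (median 5.45) and *Ssbp2* at 303 CPM in Mac (median 2.10), so both rest on few cells there. *Ssbp3* was highest among populations with more than 3 cells in E7.75 *Flk1*-GFP+ cells, at 232 CPM with a median of 197 CPM. Of the 6 co-repressor genes (among them *Hdac1*, *Hdac2* and *Kdm1a*), none was past 2-fold in E10.5 against E9.5 HPC or in E10.5 against E8.5 Mk, where 12.1% and 25.9% of all genes were. All 6 were lower in Mac than in E10.5 HPC, where the median log2 ratio over all genes was -0.11. *Gfi1b* (-3.06), *Rcor1* (-1.14) and *Sin3a* (-1.05) were past 2-fold, 3 of 6 genes, a share close to the 44.3% of all genes.

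Of 6 erythroid genes that the complex is known to regulate, 5 were more than 2-fold higher at E7.75 than at E7.25, with a median log2 ratio of 1.94 against 0.03 over all genes, of which 8.56% were past 2-fold. *Tal1* itself was 0.04 in that comparison. The medians of *Klf1*, *Alas2* and *Epb42* were 0 CPM at both stages, and that of *Gata1* went from 0 to 0.66 CPM. The rise in the means of these genes therefore rests on part of the cells, while the *Kit* median went from 0 to 14.8 CPM. *Klf1* (means 0.31 and 13.3 CPM) and *Epb42* (0.59 and 8.61 CPM) were low. The limit on average level set for all genes was not applied to this list. E7.25 and E7.75 lie on different flow cells. In E8.5 EryP against HPC 5 of 6 were more than 2-fold higher and *Kit*, the progenitor receptor gene, lower, with a median log2 ratio of 4.52, where 22.9% of all genes were past 2-fold. In E8.5 Mk 4 of 6 were more than 2-fold higher than in HPC and *Kit* lower, where 13.9% of all genes were past it. The higher genes include *Alas2*, the erythroid enzyme of haem synthesis, at 356 CPM against 38.1 CPM, beside the globin level of these cells given above. In E10.5 Mk against E8.5 Mk 4 of 6 were more than 2-fold lower, where 25.9% of all genes were past it.

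The genes most like each of the 8 were found by Pearson's r of log2(mean CPM + 1) over the 13 populations among 10482 genes, as a description, since the points share libraries and scaling. *Lyl1* was most like *Dazap2* (0.946), *Ptp4a3* (0.938) and *Mcur1* (0.922), and *Ptp4a3* was also first for *Cbfa2t3* (0.899), followed by *Exoc6* and *Letmd1*. *Lyl1* and *Cbfa2t3* themselves had r = 0.842. *Tal1* was most like *Nt5c3* (0.941), *Yod1* and *Hrsp12*, and *Lmo2* most like *Reep4* (0.960), *Mtrf1* and *Pus7l*. *Tcf4* was most like *Lrp6* (0.984), *Nf1* and *Osbpl11*, and *Tcf12* most like *Wasl* (0.976), *Mfsd7b* and *Sfr1*. *Ldb1* had *Phb2* (0.840), *Pyurf* and *Rpl12*, and *Tcf3* had *Lgalsl* (0.962), *Chmp6* and *Derl1*. *Tal1* and *Lmo2* had r = 0.101 over 13 populations and 0.581 without E10.5 EryP, whose 3 cells hold much *Tal1* and little *Lmo2*. These lists depend on that population, since without it 9 of the 24 places named stayed among the first 3. *Lrp6*, *Nf1* and *Osbpl11* then came to places 33, 58 and 85 for *Tcf4*, and *Chmp6* and *Derl1* to places 40 and 31 for *Tcf3*, with r of 0.709 and 0.723.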

How the data were processed

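The read count values were deposited by the authors, who made Nextera XT libraries of C1-captured cells, read 100 bases from each end, aligned with Rsubread to Ensembl release 84 (GRCm38) and counted with featureCounts. The signal values are CPM that the authors deposited after scater filtering, with scran size factors, and equal the filtered counts times 1 factor per cell. The strand used in counting is not given in the sources used here. The 8 genes and all lists were chosen with earlier results of these data known.

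Groups were taken from the labels, and every column of the tables was used. The filtered tables were read with pandas 2.3.3 and numpy 2.4.6, and intervals were computed with scipy 1.17.1. Detection was 1 count or more. Ratios used a pseudocount of 1, and the background was genes with an average of at least 10 CPM, a limit not applied to the members or lists. Exon lengths were from GENCODE M21. All 8 genes, the listed partners and the 3 genes most like each member (with at least 20 CPM in a population) were named. In simulated counts of E8.5 Mk over E8.5 HPC with 200 of 15967 genes changed, 90.5% of these came within 0.5 of the set log2 ratio. The simulated spread between cells followed the same gamma distribution for all genes and was not taken from the data. It therefore does not bear on ratios that rest on a single high cell, as for *Ldb1*. Alternatives were a minimum of 10 counts, thinning to 800000 counts (40 cells left out), all captured cells, leaving out lanes, other pseudocounts and scales, and longest transcripts, and after seeing the data, medians and leaving out the highest cell. The intervals cover counting error only, and reads are not independent molecules.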

Additional observations from a re-analysis of the deposited data

Results flagged for a closer look

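Cells that the study's filter removed, which enter none of the comparisons, held transcripts of these genes. Of 25 captured E10.5 EryP cells 22 did not pass, with a median of 701329 counts. *Tal1* was found in 18 of these 22 cells (81.8%, 59.7 to 94.8%) and *Lyl1* in 4 of 22 (18.2%, 5.19 to 40.3%). A count of 0 in 22 cells would still allow a share of 13.6%, and the *Lyl1* interval spans that share. *Lmo2* was found in 3 of the 22 and *Tcf4* in 1. In the 3 cells that passed, *Tal1* was found in 3, *Lyl1* in 2 and *Lmo2* in 3, so the E10.5 EryP levels given for these genes rest on 3 of 25 captured cells.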

How the results depend on the processing

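A stricter minimum of 10 counts moved the co-detection of *Tal1*, *Lyl1* and *Lmo2* outside its interval in 9 populations, to 6.12% at E7.25, 47.9% in E8.25 HPC, 76.4% in E8.5 HPC, 60.9% in E9.5 HPC, 56.3% in E10.5 HPC, 56.1% in E8.5 EryP, 79.5% in E10.5 Mk, 20.0% in Mac and 17.7% in E8.5 Endo. With all captured cells it was 64.3% in E8.5 EryP, 66.0% in E8.5 Mk and 36.6% in Mac, and thinned it was 32.0% in Mac. Without lane 6 it was 6.76% at E7.25, and without cells with transcripts of both sexes 66.7% in E8.5 EryP. Leaving out each E10.5 EryP cell gave 50.0 to 100%. The other 44 values of co-detection stayed inside their interval.

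The number of the 8 genes past 2-fold depended on the settings. For E7.75 over E7.25 it was 2 with a pseudocount of 0.1, without the highest cells, without lane 6 and without lane 8. For E8.5 over E8.25 HPC it was 0 with a pseudocount of 10, with total counts, with medians and without the highest cells. For E10.5 over E9.5 HPC it was 0 with a pseudocount of 10 and with medians, and 1 with total counts and without the highest cells. For E10.5 over E8.5 HPC it was 1 with a pseudocount of 10 and with total counts, and without the highest cells *Ldb1* was no longer past 2-fold. For E10.5 over E8.5 Mk it was 0 with total counts and 4 with medians, and for E10.5 over E8.5 Endo 4 with medians. For E8.5 EryP over HPC it was 1 with total counts and without the highest cells and 3 with medians, and for E8.5 Mk over HPC 0 with total counts and without the highest cells and 2 with medians. For E8.5 Endo over HPC it was 7 with medians and 4 with total counts, and without the highest cells *Ldb1* was no longer past 2-fold. For E10.5 Mk over HPC it was 1 with medians, and for Mac over HPC 0 with a pseudocount of 10 and 6 with medians. For E10.5 Endo over HPC it was 2 with a pseudocount of 10 and 3 with total counts. With medians *Tal1*, *Lmo2*, *Ldb1* and *Cbfa2t3* were past 2-fold in that comparison, and *Tcf12* and *Tcf3* were not. With medians the log2 ratio of *Ldb1* reversed to -0.027 in E8.5 over E8.25 HPC and to 0.34 in E8.5 Mk over HPC, and that of *Tcf3* to -0.53 in E10.5 Mk over HPC and to -0.83 in E10.5 Endo over HPC. Without the highest cells *Ldb1* was -0.17 in E8.5 over E8.25 HPC. The cause was not tested beyond leaving out the highest cells. No paired analysis was possible because the numbers in the labels name cells and no test was made.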
